A study of Mus musculus with 21 samples.

Results

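RAW264.7 cells that had received LPS together with CTM for 24 h were compared with resting RAW264.7 cells that had received PBS, over all genes measured. RAW264.7 is an established mouse macrophage-like cell line, and all cell libraries described here had the WT genotype. The treated group had 1 µg/mL LPS (lipopolysaccharide, the outer membrane component of Gram-negative bacteria) plus 0.5 mM CTM, an agent known here only by that name. The resting group had PBS and neither agent. Each group held 2 libraries, so the comparison rests on 4 of the 21 libraries of the series. The series concerns transglutaminase 2, vimentin and protein homeostasis in activated macrophages. Beside these 4 libraries, 2 libraries of the same experiment with 1 µg/mL LPS alone for 24 h are set as a reference. All 6 share 1 RNA extraction date. No group received CTM without LPS, so that a difference between LPS plus CTM and PBS holds what both agents do together, and their parts cannot be told apart from it. The direct difference between LPS plus CTM and LPS alone is therefore given beside the members where it bears on them.

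Levels are in TPM, transcript abundances corrected for length and scaled to a common sum within each library, and the number of reads behind a value is unknown. Of 35550 listed genes, 11030 averaged 1 TPM or more across the 6 and were tested, and 18719 were at 0 in all 6. Changes are differences of log2(TPM + 1), which understates the change of low genes, with the standard error (SE) of a limma fit over the 3 groups and an adjusted p over all tested genes. A gene is said to rise or fall where the adjusted p is below 0.05. Separate cultures are not stated for the libraries within a group, so these tests measure only the spread between libraries, which may be technical. Libraries of the same group correlated across genes at 0.986 to 0.988, PBS with LPS plus CTM libraries at 0.925 to 0.930, and PBS with LPS libraries at 0.880 to 0.886. These are descriptions across genes, which are not independent replicates. Of 15 macrophage markers 14 were tested, and their summed level was 13866 to 14152 TPM in PBS and 18315 to 18334 TPM with LPS plus CTM. Of these, 5 rose and 5 fell, with a median log2 change of 0.01, and most of the higher sum came from Lyz2 (described below). Lists of hepatocyte, fibroblast, dendritic, and epithelial and endothelial markers had no member that passed the filter. The lists of T and NK cell, B cell and neutrophil markers had 1 each. Lck, a T cell kinase, stood at 4.87 and 7.46 TPM in PBS and 11.4 and 12.6 TPM with both agents, with 7 of the 8 markers of its list at 0 in all 6 libraries. Ighm, the IgM heavy chain, stood at 65.1 and 63.4 TPM in PBS and 35.7 and 36.5 TPM with both agents. S100a8, a neutrophil calcium-binding protein, stood at 0.896 and 0.714 TPM in PBS and 7.58 and 9.64 TPM with both agents. The part of such cells in the results was not tested.

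As background, macrophages sense LPS through CD14, MD-2 and the receptor TLR4. One branch below this receptor runs through MYD88 to NF-kB and AP-1, which switch on cytokines, chemokines and enzymes that make inflammatory mediators. Another branch runs through TRIF and leads to type I interferon and the interferon-stimulated genes. Activated macrophages also engage programmes that adjust amino acid supply and protein folding. The factor ATF4 drives amino acid uptake, tRNA charging and stress genes, while the factors XBP1 and ATF6 drive chaperones of the endoplasmic reticulum (ER). NRF2 drives antioxidant and iron-storage genes, and dividing macrophages tend to leave the cell cycle on activation.

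With both agents present, 5839 of 11030 tested genes differed from rest: 1922 rose, which is 17.4% of the tested genes, and 3917 fell, which is 35.5%. Most changes were small: 540 genes rose at least 2-fold (4.9%), 689 fell at least 2-fold (6.25%), and 4610 of the changed genes moved by less. At least 4-fold changes leaned the other way, with 176 genes higher and 56 lower. The split depends on how libraries are scaled. TPM as deposited gave 32.9% of the changed genes as higher, whereas median-of-ratios scaling gave 2813 higher and 2577 lower, or 52.2% higher, with the log2 changes moved up by a median of 0.16. The median log2 change of all genes was -0.16 as deposited, and lists of small changes are therefore described with both scalings. Counts of each list below stand beside the 17.4% higher and 35.5% lower over all tested genes. Counts after scaling stand beside 2813 higher and 2577 lower of 11030. In LPS alone, 20.9% of the same genes were higher and 45.1% lower than in PBS. Between LPS plus CTM and LPS alone, 16.1% were higher and 9.45% lower. Comparisons that involve LPS alone are given as deposited only, here and below.

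**Figure D1:**
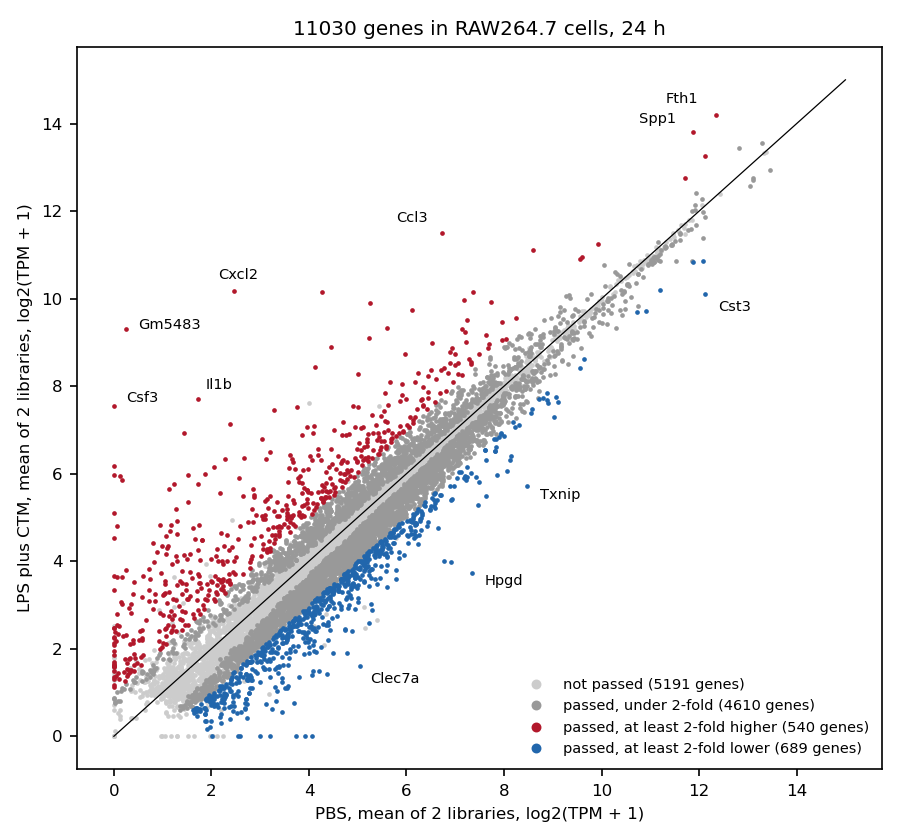
Each point is 1 of 11030 genes, with its mean log2(TPM + 1) over 2 libraries in PBS on the x axis and in LPS plus CTM on the y axis; colours give the test result and the line marks equal levels. The 540 genes at least 2-fold higher reach further from the line than the 689 at least 2-fold lower, and Fth1 and Spp1 are at the top of the range.

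The genes that rose most took a larger share of all transcripts than those that fell most gave up. The 540 genes with at least a 2-fold rise held 3.21% and 3.26% of all TPM in the PBS libraries and 11.2% and 10.7% in the LPS plus CTM libraries. The 689 genes with at least a 2-fold fall held 4.80% and 4.79% at rest and 1.91% and 1.91% with both agents. These shares describe the genes that the test chose and are no further evidence. In absolute terms the largest gain was that of Fth1, the heavy chain of the iron-storage protein ferritin, from 5214 and 5179 TPM to 18888 and 18612 TPM. Spp1, which encodes the secreted matrix protein osteopontin, followed with 3687 and 3869.8 TPM at rest and 14623 and 14214 TPM with both agents. The largest loss of a nuclear gene was that of Cst3, the protease inhibitor cystatin C, from 4412 and 4532 TPM to 1086 and 1120.3 TPM. The 3 genes just named were chosen by the size of their difference in TPM after the values were seen.

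Of the 15 genes with the largest rises, 8 encode chemokines, cytokines or mediator enzymes: Cxcl2, Ccl3, Ccl4, Csf3, Il1b, Il1a, Nos2 and Ptgs2. Cxcl2, a chemokine that draws neutrophils, stood at 4.71 and 4.38 TPM in PBS and at 1311 and 1009.9 TPM with LPS plus CTM, a log2 change of 7.70 (SE 0.12, adjusted p = 5.7e-08). Its LPS-only libraries were higher still, at 3703 and 4082 TPM, and the difference of LPS plus CTM from LPS was -1.76 (SE 0.12, adjusted p = 3.7e-04). Csf3, the granulocyte growth factor G-CSF, was listed at 0 in each PBS library and stood at 199.8 and 174 TPM with both agents. The interleukin-1 genes, which encode fever- and inflammation-driving cytokines, also left the floor. Il1b went from 1.80 and 2.87 TPM to 226 and 192 TPM (log2 change 5.99, SE 0.15, adjusted p = 3.8e-07). Il1a, listed at 0 in each PBS library, reached 38.5 and 28.8 TPM. The naming rule fixed that PBS and LPS plus CTM libraries do not overlap for these 4 genes. No LPS plus CTM library reached an LPS library for any of them.

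The enzymes Nos2 and Ptgs2 and the chemokines Ccl3 and Ccl4 were counted above. Lcn2 and Thbs1 are further genes among the 15 with the largest rises. Nos2, the inducible nitric oxide synthase, rose from 1.37 and 2.09 TPM to 120.0 and 121 TPM (log2 change 5.49, SE 0.13), and Ptgs2, the inducible cyclooxygenase, from 3.71 and 4.68 TPM to 159 and 125 TPM (log2 change 4.78, SE 0.13). Lcn2, which encodes the iron-withholding protein lipocalin 2, was at 0 and 0.206 TPM in PBS and 64.6 and 56.9 TPM with both agents. Thbs1, the matrix protein thrombospondin 1, was at 0.0691 and 0.0274 TPM at rest and 27.5 and 26.01 TPM with both agents, against 35.9 and 30.7 TPM in LPS (difference -0.30, SE 0.13, adjusted p = 0.125). The nearly silent resting state of these genes makes their fitted changes depend on the pseudocount. Ccl3 and Ccl4, chemokines that attract monocytes and T cells, were already present at rest: Ccl3 at 106 and 103 TPM and Ccl4 at 37.1 and 37.3 TPM. With both agents Ccl3 stood at 3234 and 2622 TPM (log2 change 4.79, SE 0.10) and Ccl4 at 1043 and 884 TPM (log2 change 4.65, SE 0.09).

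Some of the 15 need a caution about identity. Pgk1-rs7 is annotated as a processed pseudogene of the glycolytic enzyme gene Pgk1 (GRCm38, chromosome 12, 10898986 to 10900240, minus strand). It was listed at 0 in each PBS library, at 20.2 and 14.1 TPM in LPS and at 53.5 and 72.2 TPM with both agents, while Pgk1 itself was at 1465 and 1556 TPM, 2124 and 2240.1 TPM and 1796 and 1772 TPM. Reads of such a near-copy may be split with its parent. Olfr1033, an olfactory receptor gene annotated on chromosome 2 (86020633 to 86045171, plus strand), went from 17.1 and 19.6 TPM to 1146 and 1127 TPM. Tnnt2, which encodes cardiac troponin T, went from 0 and 0.245 TPM to 51.2 and 63.1 TPM. Urah was listed at 0 at rest and reached 24.2 and 20.2 TPM, and 2 other genes are annotated over it on the opposite strand. Il1a, Il1b and Thbs1 also have an antisense gene annotated over them, and the sources used here do not say whether quantification used strand. Outside the naming rule, which skips predicted genes, Gm5483 showed the largest fitted rise of all, from 0 and 0.396 TPM to 637 and 629.6 TPM, and was named after its value was seen.

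**Figure D2:**
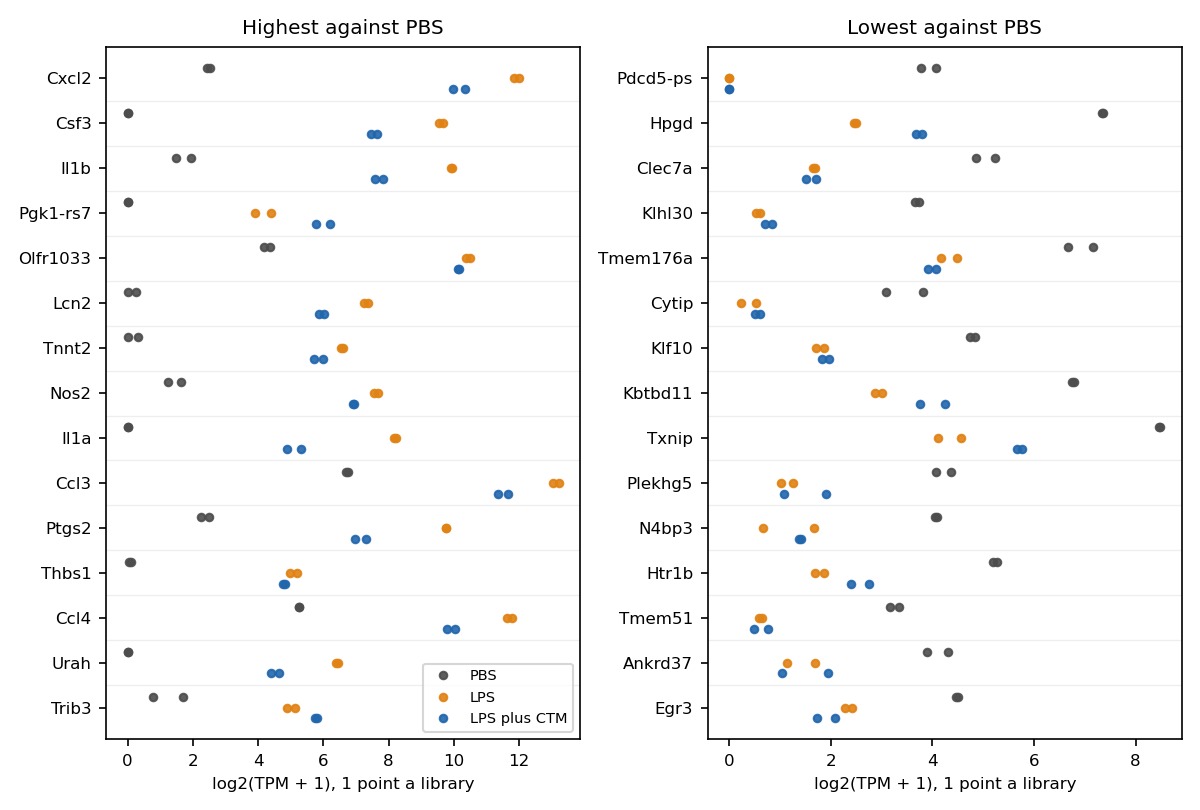
Log2(TPM + 1) in each library for the 15 genes with the largest rises (left) and the 15 with the largest falls (right) in LPS plus CTM against PBS; each point is 1 library, and LPS-only libraries are shown for reference. LPS plus CTM points are separate from PBS points in every row by the naming rule; Cxcl2, Il1a and Ptgs2 lie between PBS and LPS, while Pgk1-rs7 and Trib3 lie above LPS.

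Across the list of inflammatory cytokines, 14 of 18 tested members rose and 1 fell, with a median log2 change of 2.40 against -0.16 for all tested genes. Tnf rose from 63.1 and 60.6 TPM to 436 and 417 TPM (log2 change 2.77, SE 0.06). Osm, an interleukin-6 family cytokine, rose from 2.28 and 2.31 TPM to 57.9 and 49.1 TPM. Il1rn, the antagonist that blocks the interleukin-1 receptor, rose from 13.9 and 18.6 TPM to 136 and 132 TPM. The member that fell was Il18, which is stored as a precursor in resting macrophages, from 30.8 and 37.7 TPM to 16.4 and 17.5 TPM. Il6, another driver of the acute phase, had no level in PBS (listed at 0 in each library) and stood at 3.47 and 1.93 TPM with both agents against 21.8 and 23.8 TPM in LPS. Against LPS alone, 16 of the 18 were lower and none higher. The summed level of the 24 listed members was 419.6 to 438.7 TPM in PBS, 1595 to 1727 TPM with both agents and 4289 to 4314 TPM in LPS.

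Chemokines followed the same course: 11 of 14 tested members rose and 1 fell. Ccl5, a chemokine for T cells and monocytes, rose from 21.2 and 20.5 TPM to 477 and 470.2 TPM, near its 559 and 614 TPM in LPS (difference -0.31, SE 0.06, adjusted p = 0.0123). Ccl2, a monocyte chemokine, rose from 15.6 and 17.3 TPM to 356 and 336 TPM, against 855 and 893 TPM in LPS. Cxcl10, an interferon-induced chemokine, rose from 3.99 and 4.30 TPM to only 10.2 and 14.1 TPM, against 56.3 and 61.3 TPM in LPS. Chemokines thus differed among themselves in how near their level with both agents came to that with LPS. The member that fell was Cxcl14, from 32.9 and 34.6 TPM to 15.4 and 14.4 TPM.

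Of the mediator and immunometabolic enzymes, 11 of 15 tested members rose and 2 fell. Acod1, which makes itaconate, rose from 63.4 and 72.8 TPM to 887 and 833 TPM (log2 change 3.64, SE 0.07). Odc1, the first enzyme of polyamine synthesis, rose from 389 and 379.5 TPM to 2308 and 2151 TPM. Ptges, the prostaglandin E synthase that acts after cyclooxygenase, rose from 1.98 and 0.980 TPM to 22.1 and 12.2 TPM. The deepest fall of the list was that of Hpgd, the enzyme that inactivates prostaglandins, which is described with the other falls below. Ptgs1, the constitutive cyclooxygenase, fell from 14.9 and 13.8 TPM to 9.34 and 11.1 TPM, a call lost after scaling (adjusted p = 0.0916), with no filter (adjusted p = 0.0568), without either PBS library (adjusted p = 0.129 and 0.0700) and without the LPS plus CTM library numbered 2 (adjusted p = 0.140).

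Members of the receptor end of the pathway moved both ways, with 8 of 19 LPS receptors and adaptors higher and 7 lower (8 and 4 after scaling). Cd14, the co-receptor that hands LPS to TLR4, rose from 756 and 750.2 TPM to 1945 and 1891 TPM (log2 change 1.35, SE 0.04). Tlr4 rose from 17.7 and 20.3 TPM to 32.1 and 27.7 TPM, whereas it was 19.6 and 17.8 TPM in LPS alone (difference from LPS 0.65, SE 0.12, adjusted p = 7.8e-03). The adaptor gene Myd88 fell from 62.8 and 59.8 TPM to 40.1 and 41.3 TPM and Ticam2, an adaptor of the TRIF branch, from 16.5 and 17.4 TPM to 6.32 and 6.71 TPM. Irak3, which encodes a kinase-family brake on the pathway, rose from 6.72 and 5.65 TPM to 36.2 and 34.9 TPM.

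Among NF-kB subunits and feedback genes, 13 of 26 rose and 7 fell, and the falls dropped to 4 without the LPS plus CTM library numbered 3. The risers were led by Nfkbiz, Zc3h12a and the adaptor gene Traf1. Nfkbiz, a nuclear IkB protein, rose from 12.4 and 14.8 TPM to 120.3 and 114 TPM (log2 change 3.02, SE 0.10), and Zc3h12a, an RNase that degrades cytokine messages, from 14.9 and 16.4 TPM to 76.5 and 79.4 TPM. Tnfaip3, the ubiquitin editor A20, rose from 5.93 and 7.25 TPM to 12.8 and 11.4 TPM against 36.5 and 38.3 TPM in LPS. Nfkbie, an IkB protein, fell from 8.48 and 10.6 TPM to 2.08 and 1.98 TPM. The subunit gene Rela fell from 55.9 and 53.7 TPM to 44.1 and 40.02 TPM, a call lost after scaling (adjusted p = 0.0560), without PBS replicate 1 (adjusted p = 0.0620) and without the LPS plus CTM library numbered 3 (adjusted p = 0.0687).

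Interferon-stimulated genes rose almost throughout: 35 of 40 tested members rose and 1 fell, with a median log2 change of 1.48. Irf7, the factor that amplifies interferon production, rose from 37.2 and 35.8 TPM to 553 and 551 TPM (log2 change 3.88, SE 0.05, adjusted p = 3.2e-08). Isg15, a ubiquitin-like modifier, rose from 8.21 and 7.31 TPM to 75.4 and 85.5 TPM, and Zbp1, a sensor of Z-form nucleic acid, from 5.83 and 4.12 TPM to 56.5 and 61.4 TPM. Against LPS alone, 17 of the 40 were lower, 2 were higher and the rest did not pass that test. Over all tested genes 9.45% were lower and 16.1% higher. Irf7, Isg15 and Zbp1 were among the lower ones (differences -0.25, -0.49 and -0.71, adjusted p = 0.0111, 9.3e-03 and 9.9e-03). Bst2, which tethers budding viruses, was at 153 and 148 TPM in PBS, 732 and 743 TPM in LPS and 725 and 742 TPM with both agents. Rsad2, which encodes viperin, reached only 3.77 and 3.62 TPM from 1.19 and 2.42 TPM, against 15.3 and 14.6 TPM in LPS. Its rise missed the threshold without PBS replicate 1 (adjusted p = 0.0815) and without either LPS plus CTM library (adjusted p = 0.0820 and 0.0683), and with no filter on low levels (adjusted p = 0.0640). The 1 member that fell was Irf1, a factor of the interferon-gamma response, from 15.7 and 13.9 TPM to 3.50 and 3.40 TPM, and in LPS it stood at 1.47 and 1.20 TPM.

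Antigen presentation and costimulation genes rose in 17 of 21 tested members and fell in 1. Cd274, the checkpoint ligand PD-L1, rose from 1.19 and 1.67 TPM to 39.5 and 32.2 TPM (log2 change 3.92, SE 0.14). The costimulator Cd80 rose from 8.64 and 10.3 TPM to 33.4 and 30.4 TPM, and B2m, the shared subunit of MHC class I, from 1056 and 1048 TPM to 1759.8 and 1725 TPM. The member that fell was H2-DMa, which loads peptides on MHC class II, from 37.2 and 38.00 TPM to 22.1 and 20.9 TPM. Of the antimicrobial and acute phase genes, 15 of 19 rose and 2 fell. Lyz2, the macrophage lysozyme, rose from 7112 and 7320.2 TPM to 11086 and 11108 TPM, above its 9682 and 9701 TPM in LPS (difference 0.20, SE 0.03, adjusted p = 4.5e-03). Its near-copy Lyz1 moved in the same direction, and reads may be split between them.

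Of 22 tested targets of ATF4, 21 rose and none fell, with a median log2 change of 1.74. Promoters of 3 members that hold the composite element of ATF4 and C/EBP are printed here because these genes rose, with that of the amino acid transporter gene Slc7a11, which is described below. The element was searched as TGATGNAA on both strands in the 250 bases before and 50 bases after each start, from RefSeq (GRCm38.p6), each read in the direction of its gene. The capitals mark the match, whose first base lies 15 bases after the start in Trib3 and 193, 23 and 66 bases before it in Chac1, Asns and Slc7a11, with another 47 bases before the start of Slc7a11. In Trib3, Chac1 and the latter match of Slc7a11 it is on the reverse strand.
Trib3 promoter, chr2:152344011-152344310, minus strand: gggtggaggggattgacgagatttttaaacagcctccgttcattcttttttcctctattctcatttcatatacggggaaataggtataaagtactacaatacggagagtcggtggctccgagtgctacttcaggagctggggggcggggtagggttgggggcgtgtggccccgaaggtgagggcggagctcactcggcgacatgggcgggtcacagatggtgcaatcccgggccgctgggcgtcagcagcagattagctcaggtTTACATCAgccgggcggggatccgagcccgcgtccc
Chac1 promoter, chr2:119350992-119351291, plus strand: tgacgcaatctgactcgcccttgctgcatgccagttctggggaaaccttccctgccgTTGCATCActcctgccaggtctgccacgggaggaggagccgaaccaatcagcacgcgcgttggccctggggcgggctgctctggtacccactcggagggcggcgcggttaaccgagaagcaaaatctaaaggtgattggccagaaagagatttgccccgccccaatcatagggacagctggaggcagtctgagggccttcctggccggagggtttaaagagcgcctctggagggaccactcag
Asns promoter, chr6:7693160-7693459, minus strand: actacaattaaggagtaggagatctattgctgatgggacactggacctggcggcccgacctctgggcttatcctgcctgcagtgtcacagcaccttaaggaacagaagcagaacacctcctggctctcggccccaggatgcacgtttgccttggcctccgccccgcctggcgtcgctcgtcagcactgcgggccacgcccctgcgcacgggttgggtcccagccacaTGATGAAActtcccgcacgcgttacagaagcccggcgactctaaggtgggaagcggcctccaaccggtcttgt
Slc7a11 promoter, chr3:50443564-50443863, minus strand: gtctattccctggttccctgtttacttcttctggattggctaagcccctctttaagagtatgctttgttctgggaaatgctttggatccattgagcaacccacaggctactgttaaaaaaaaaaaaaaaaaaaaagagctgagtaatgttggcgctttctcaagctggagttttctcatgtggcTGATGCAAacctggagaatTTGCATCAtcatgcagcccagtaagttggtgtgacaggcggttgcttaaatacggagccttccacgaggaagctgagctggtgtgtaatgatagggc

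A match was found in 4.06% of all 27025 promoters and in 2.30% of the 8408 promoters of tested genes. Among ATF4 targets 8 of 23 promoters had a match (34.8%), including Fgf21 and Avil, which did not pass the filter. Matches were in 5 of 15 promoters of tRNA synthetases (33.3%) and in 3 of 14 of amino acid transporters (21.4%). Serine and one-carbon genes had a match in 0 of 9. A match describes these letters and does not show that the factor binds. Trib3, a pseudokinase induced by amino acid shortage, was at 2.27 and 0.710 TPM in PBS and 52.1 and 54.4 TPM with both agents (log2 change 4.52, SE 0.27, adjusted p = 2.0e-05), and LPS libraries stood at 34.2 and 28.7 TPM. Chac1, which degrades glutathione, rose from 1.46 and 1.05 TPM to 27.8 and 27.4 TPM. Both genes lay above both LPS libraries, but neither difference from LPS passed the test (adjusted p = 0.0849 for Trib3 and 0.0553 for Chac1). Asns, the asparagine synthetase, rose from 46.7 and 44.6 TPM to 173 and 171 TPM, and Ddit3, the stress factor CHOP, from 15.1 and 13.9 TPM to 129 and 137 TPM. The message of Atf4 itself rose from 149 and 148 TPM to 529 and 507 TPM.

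Against LPS alone, members of the ATF4 list differed among themselves. Atf3, an early stress factor, stood at 207 and 160.2 TPM with both agents and 558 and 537 TPM in LPS, from 10.1 and 15.3 TPM at rest (difference from LPS -1.58, SE 0.19, adjusted p = 1.8e-03). Ppp1r15a, the phosphatase subunit GADD34, stood at 58.5 and 49.7 TPM and 102 and 122 TPM, from 13.01 and 13.9 TPM. Against these, Sesn2, which reports leucine to mTORC1, was higher than in LPS, at 41.9 and 37.97 TPM against 29.7 and 24.2 TPM, from 8.95 and 9.29 TPM at rest (difference 0.55, SE 0.12, adjusted p = 0.0152). Atf5 was also higher than in LPS, at 65.5 and 69.7 TPM against 47.3 and 43.8 TPM, from 14.5 and 14.9 TPM (difference 0.56, adjusted p = 3.7e-03). In all, 3 of the 22 members were higher than in LPS, 8 were lower and 11 did not pass.

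Genes that supply and charge amino acids rose with this group. Slc7a11, the cystine importer, rose from 8.92 and 8.59 TPM to 174 and 172 TPM (log2 change 4.16, SE 0.07), and Slc1a4, a transporter of neutral amino acids, from 0.913 and 1.24 TPM to 9.84 and 10.5 TPM. Of 18 amino acid transporters 11 rose and 3 fell. Slc7a2, the arginine carrier of activated macrophages, rose only to 4.50 and 3.99 TPM from 1.86 and 2.48 TPM, against 16.98 and 20.9 TPM in LPS, a rise that missed the threshold without PBS replicate 1 (adjusted p = 0.0595) and without the LPS plus CTM library numbered 2 (adjusted p = 0.0558). Of 23 cytosolic tRNA synthetases 17 rose and 1 fell. Cars, the cysteine enzyme, rose from 50.7 and 41.3 TPM to 127 and 118 TPM, and Gars, the glycine enzyme, from 124 and 117 TPM to 225 and 229.8 TPM. The member that fell was Vars, the valine enzyme, from 224 and 225 TPM to 169 and 193 TPM. After scaling no member fell, and the call for Vars was also lost without either PBS library or without the LPS plus CTM library numbered 2 (adjusted p from 0.0737 to 0.116), with no filter (adjusted p = 0.0536) and with no variance trend (adjusted p = 0.0566). Among 12 serine and one-carbon genes 6 rose and 2 fell, led by the mitochondrial folate enzymes. Aldh1l2 rose from 2.29 and 2.05 TPM to 23.1 and 20.7 TPM and Mthfd2 from 66.2 and 58.5 TPM to 208 and 210.3 TPM. Phgdh, which starts serine synthesis, was near rest at 129 and 132 TPM against 123 and 116 TPM in PBS (log2 change 0.13, SE 0.08, adjusted p = 0.193) and stood at 78.3 and 69.3 TPM in LPS. After scaling the rise of Phgdh from rest was 0.29 and passed (adjusted p = 9.0e-03).

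Chaperones and quality control genes of the ER stayed closer to rest. Of 35 tested members 10 rose and 11 fell as deposited, and 14 rose and 4 fell after scaling, so the balance of this list turns with the scaling. The falls also dropped to 7 with no variance trend, to 6 without PBS replicate 1 and to 5 without the LPS plus CTM library numbered 2. As deposited, in LPS alone 7 of the 35 were higher and 23 lower than in PBS. Between LPS plus CTM and LPS 24 were higher and 4 lower, also as deposited. Scaled counts of these comparisons with LPS are not given, so they cannot be set beside the scaled counts above. Promoters of 3 members with the ER stress response element are shown because they carry the site of the other stress branch. The element is CCAAT and CCACG with 9 bases between them, searched on both strands. It was found in 0.130% of all promoters and 9 of 28 promoters of this list (32.1%), including that of Derl3, which did not pass the filter. The first base of the element lies 65, 126 and 98 bases before the start of Hspa5, Creld2 and Pdia6, on the reverse strand in Creld2.
Hspa5 promoter, chr2:34771840-34772139, plus strand: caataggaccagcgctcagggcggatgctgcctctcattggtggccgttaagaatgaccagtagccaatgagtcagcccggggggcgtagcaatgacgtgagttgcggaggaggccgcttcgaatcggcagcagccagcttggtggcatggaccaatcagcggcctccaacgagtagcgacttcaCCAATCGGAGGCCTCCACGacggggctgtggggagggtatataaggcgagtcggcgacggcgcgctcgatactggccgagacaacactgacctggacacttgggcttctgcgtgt
Creld2 promoter, chr15:88819396-88819695, plus strand: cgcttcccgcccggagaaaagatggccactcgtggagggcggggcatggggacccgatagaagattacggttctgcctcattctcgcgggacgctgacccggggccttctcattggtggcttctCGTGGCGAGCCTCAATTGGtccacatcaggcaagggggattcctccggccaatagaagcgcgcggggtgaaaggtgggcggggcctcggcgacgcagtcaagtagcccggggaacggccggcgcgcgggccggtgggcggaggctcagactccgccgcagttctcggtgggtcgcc
Pdia6 promoter, chr12:17266339-17266638, plus strand: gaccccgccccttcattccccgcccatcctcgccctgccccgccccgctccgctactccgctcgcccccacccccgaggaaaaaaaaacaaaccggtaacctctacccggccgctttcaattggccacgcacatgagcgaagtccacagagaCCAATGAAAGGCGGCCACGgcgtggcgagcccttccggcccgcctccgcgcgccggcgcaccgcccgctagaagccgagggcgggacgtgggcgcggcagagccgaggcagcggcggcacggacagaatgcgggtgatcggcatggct

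Hspa5, the chaperone BiP, stood at 1519.5 and 1434 TPM in PBS, 811 and 768 TPM in LPS and 1271 and 1306 TPM with both agents. Its fall from rest was small (log2 change -0.20, SE 0.05, adjusted p = 0.0114), and lost after scaling (-0.03, adjusted p = 0.628), with no variance trend (adjusted p = 0.0818), without PBS replicate 1 (adjusted p = 0.0843) and without the LPS plus CTM library numbered 2 (adjusted p = 0.0780). Its difference from LPS was 0.71 (SE 0.05, adjusted p = 3.8e-04). Creld2, an ER-resident protein, had the same order, with 169 and 161 TPM, 81.2 and 83.9 TPM and 137 and 141 TPM, and its fall from rest was also lost after scaling (adjusted p = 0.318), without PBS replicate 1 (adjusted p = 0.0678) and without the LPS plus CTM library numbered 2 (adjusted p = 0.0692). Pdia6, a disulfide isomerase, was at 513 and 487 TPM in PBS and 445 and 473 TPM with both agents, and the change did not pass and turned sign with scaling (log2 change -0.12, SE 0.06, adjusted p = 0.108). The 4 members that rose most were Ern1, Crebrf, Ero1l and Herpud1. Ern1, the sensor IRE1, rose from 9.28 and 8.42 TPM to 24.2 and 22.01 TPM. Herpud1, a component of ER-associated degradation, rose from 67.5 and 64.3 TPM to 113 and 117 TPM, above its 79.9 and 72.1 TPM in LPS (difference 0.59, SE 0.07, adjusted p = 2.1e-03). Xbp1, the factor itself, fell from 191 and 199 TPM to 141 and 141 TPM, and the sensor Eif2ak3, PERK, from 10.9 and 12.4 TPM to 6.87 and 6.14 TPM.

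**Figure D3:**
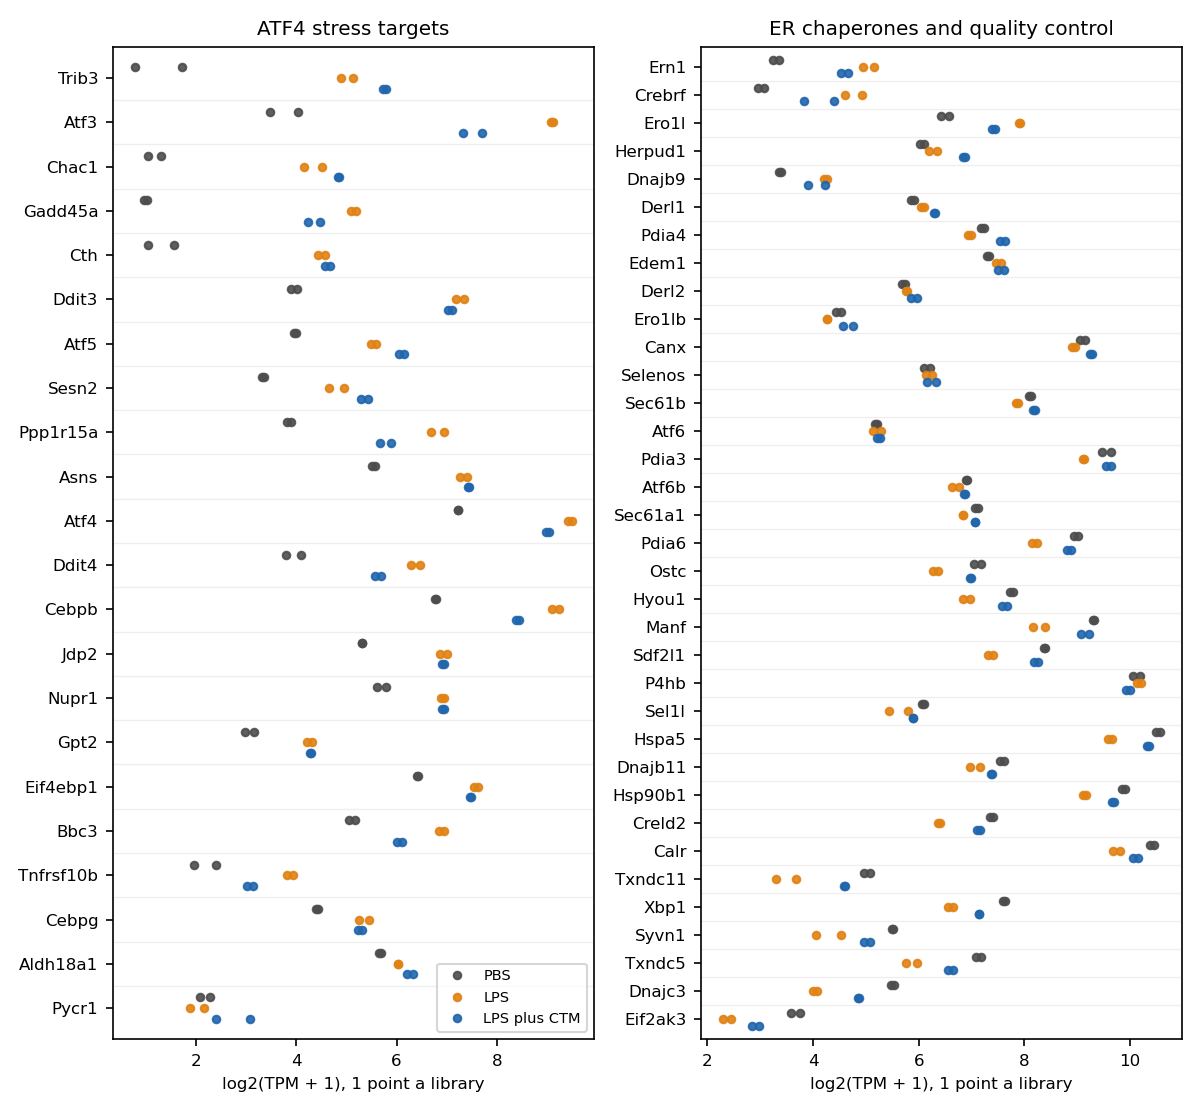
Log2(TPM + 1) of each of the 22 tested ATF4 stress targets (left) and the 35 tested ER chaperones and quality control genes (right), 1 point a library, ordered by the change of LPS plus CTM against PBS. In the left panel LPS plus CTM points lie right of PBS points in every row, where 21 of 22 passed the test; in the right panel most lie near the PBS points and right of the LPS points.

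Of 20 heat shock genes 5 rose and 7 fell as deposited, and 7 rose and 6 fell after scaling, so the balance turns with the scaling. Fewer rose without PBS replicate 2 or without either LPS plus CTM library. The stress-inducible chaperone Hspa1b fell from 9.07 and 8.58 TPM to 0.907 and 1.48 TPM (log2 change -2.17, SE 0.22), below its 4.53 and 6.64 TPM in LPS (difference -1.58, SE 0.22, adjusted p = 3.0e-03). Its co-chaperone Dnajb1 fell from 20.5 and 20.4 TPM to 9.97 and 8.99 TPM. Of 33 proteasome subunits 11 rose and 4 fell as deposited, 21 rose and 1 fell after scaling, and the risers dropped to 6 without PBS replicate 2 and to 7 without either LPS plus CTM library. No subunit changed by more than 0.40 on the log2 scale. Heat shock genes and proteasome subunits stand beside the 17.4% of all tested genes that rose and the 35.5% that fell. Among 27 autophagy genes 10 rose and 3 fell, led by the cargo receptor Sqstm1, from 163 and 164 TPM to 1175 and 1096 TPM (log2 change 2.79, SE 0.05).

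NRF2 targets rose in 17 of 30 tested members and fell in 4, and Slc7a11 and Sqstm1, which also stand on other lists here, led them. Hmox1, the heme oxygenase, rose from 87.8 and 94.2 TPM to 526 and 492 TPM (log2 change 2.47, SE 0.06). The ferritin chains Fth1 and Ftl1 rose by 1.85 and 1.14 on the log2 scale. Other enzymes of the group were above both rest and LPS. Gclm, the regulatory subunit of glutathione synthesis, went from 82.8 and 77.00 TPM in PBS to 145 and 154 TPM in LPS and 194 and 179.9 TPM with both agents (difference from LPS 0.33, SE 0.07, adjusted p = 0.0147). Blvrb, a biliverdin reductase, went from 28.02 and 21.8 TPM to 86.04 and 85.3 TPM and 114 and 119.8 TPM (difference 0.44, adjusted p = 0.0268). The catalytic subunit Gclc went the other way and fell from 41.3 and 41.3 TPM to 23.4 and 24.2 TPM, as did Keap1, the NRF2 inhibitor, from 44.8 and 46.7 TPM to 26.9 and 29.4 TPM. Of the 30 members 15 were higher and 6 lower than in LPS alone.

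Of 21 p53 targets 15 rose and 3 fell. Plk2, a stress-induced kinase, rose from 1.15 and 1.24 TPM to 56.1 and 42.99 TPM, and Cdkn1a, the cell cycle inhibitor p21, from 157 and 161 TPM to 364 and 359 TPM. Trp53 itself fell from 195 and 196 TPM to 145 and 149 TPM. Sesn1 fell from 54.3 and 54.3 TPM to 12.2 and 13.6 TPM (log2 change -1.99, SE 0.10), while its paralog Sesn2, described above, rose. Of 33 immediate early and AP-1 genes 19 rose and 9 fell. Dusp4, a MAP kinase phosphatase, rose from 7.23 and 7.13 TPM to 122 and 99.6 TPM, and Fosl1, an AP-1 subunit, from 2.13 and 2.56 TPM to 27.3 and 27.1 TPM, above its 21.4 and 19.6 TPM in LPS (difference 0.39, adjusted p = 0.0473). Egr3 was among the 15 deepest falls, from 20.99 and 21.8 TPM to 2.31 and 3.22 TPM.

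The falls were led by genes of varied function. Hpgd, the prostaglandin-inactivating dehydrogenase, fell from 160.2 and 163 TPM to 11.8 and 12.9 TPM (log2 change -3.61, SE 0.09, adjusted p = 3.9e-07), and stood at 4.60 and 4.47 TPM in LPS. Clec7a, the beta-glucan receptor dectin-1, fell from 28.1 and 36.7 TPM to 2.26 and 1.84 TPM (log2 change -3.44, SE 0.17). Txnip, which restrains glucose uptake and binds thioredoxin, fell from 352 and 358 TPM to 49.8 and 52.96 TPM (log2 change -2.76, SE 0.13). Hpgd and Txnip lay between rest and LPS: the differences from LPS were 1.27 (adjusted p = 4.3e-04) and 1.37 (adjusted p = 9.6e-04). For Clec7a that difference did not pass, at -0.06 (SE 0.17, adjusted p = 0.836).

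The neighbours Tmem176a and Tmem176b, which encode membrane proteins of immature myeloid cells, fell together. Tmem176a went from 101 and 142 TPM to 15.7 and 13.97 TPM and Tmem176b from 260.0 and 273 TPM to 63.1 and 68.6 TPM, and as they overlap on opposite strands of chromosome 6 their reads may not be fully separate. Klf10, a factor induced by TGF-beta, fell from 27.5 and 25.6 TPM to 2.91 and 2.56 TPM. Kbtbd11 fell from 109 and 106 TPM to 12.6 and 17.9 TPM, and Htr1b, a serotonin receptor, from 37.8 and 35.5 TPM to 4.29 and 5.75 TPM. The other genes among the 15 were Pdcd5-ps, Klhl30, Cytip, Plekhg5, N4bp3, Tmem51, Ankrd37 and Egr3, none of them above 22 TPM at rest. Txnip, Kbtbd11, Cytip, Htr1b, Tmem51 and Ankrd37 have genes annotated over them on the opposite strand, so their reads may not be separate. Pdcd5-ps is annotated as a processed pseudogene within Kcnk2 and was listed at 0 in all 4 treated libraries.

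Cell division genes fell nearly as a block. Of 43 genes of S phase and replication 41 fell and none rose, with a median log2 change of -0.92, and scaling left the count at 41. Ung, a DNA repair glycosylase, fell from 29.8 and 32.6 TPM to 7.92 and 8.06 TPM (log2 change -1.84, SE 0.12). Ccne2, a cyclin of S phase entry, fell from 32.5 and 29.1 TPM to 7.97 and 11.3 TPM, against 2.76 and 2.39 TPM in LPS. Of 40 genes of mitosis and cytokinesis 37 fell and none rose (35 after scaling). Aurkb, a mitotic kinase, fell from 127 and 115 TPM to 41.5 and 41.97 TPM, and Mki67, the proliferation marker Ki-67, from 167 and 153 TPM to 65.8 and 61.9 TPM. The treated cells were still above LPS alone for 25 of the 43 S phase genes, with 1 lower, and for 17 of the 40 mitosis genes, with 1 lower. In bulk samples, fewer dividing cells and less message per cell cannot be told apart.

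**Figure D4:**
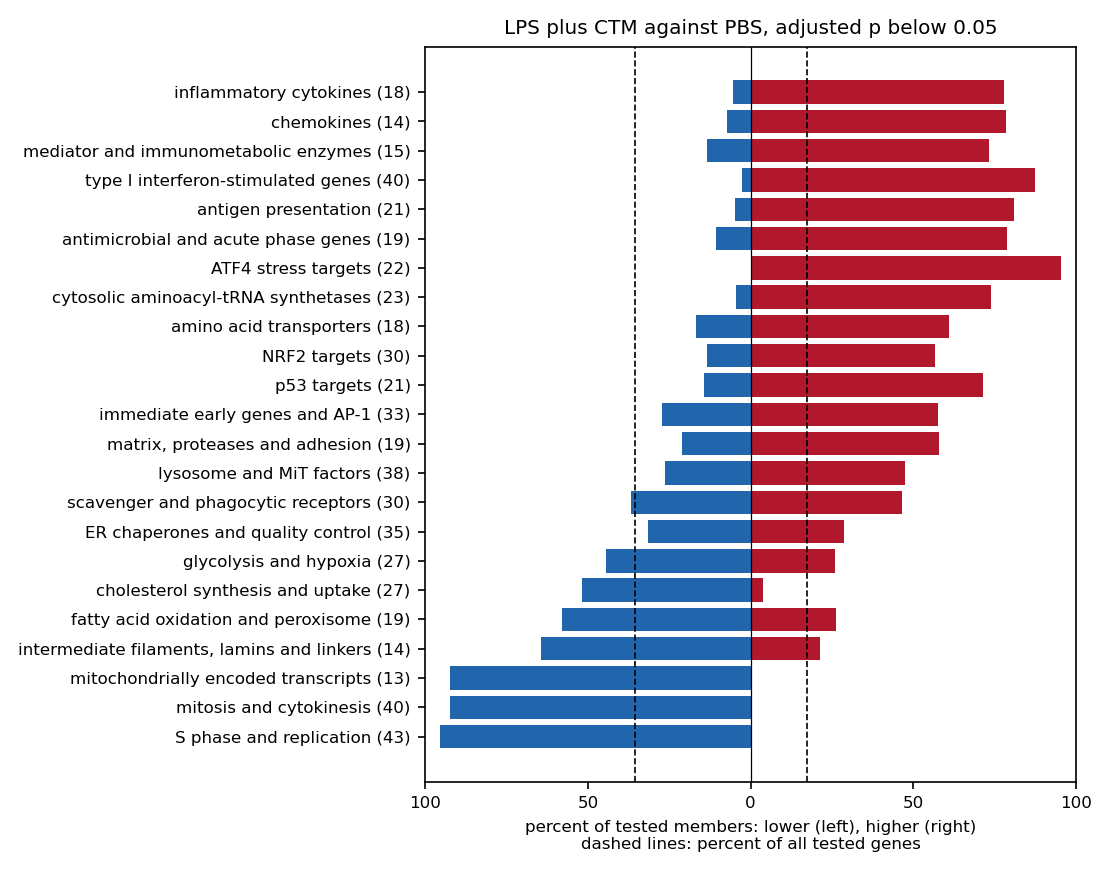
Percent of the tested members of 23 gene lists that rose (red, right) or fell (blue, left) in LPS plus CTM against PBS at an adjusted p below 0.05; the number of tested members is in brackets and dashed lines give the percent over all tested genes, 17.4% higher and 35.5% lower. Cytokines, chemokines, interferon-stimulated genes and ATF4 targets are mostly red, S phase, mitosis and mitochondrially encoded transcripts mostly blue.

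Transcripts of the mitochondrial genome fell in 12 of 13 cases and rose in none (11 fell after scaling). Their summed level was 64487 to 67559 TPM in PBS, 45250 to 47957 TPM with both agents and 35776 to 36380 TPM in LPS. mt-Nd1, a complex I subunit, fell from 4394 and 4259 TPM to 1825 and 1862 TPM (log2 change -1.23, SE 0.10) and stood at 840.4 and 661 TPM in LPS. mt-Co1, a complex IV subunit, was unlike the others, at 10275 and 10824 TPM and 10973 and 9910 TPM (log2 change -0.02, SE 0.05, adjusted p = 0.811). Subunits encoded in the nucleus moved little and with the scaling: 17 of 45 fell and 2 rose as deposited, 2 fell and 8 rose after scaling, and 11 fell without either PBS library or the LPS plus CTM library numbered 2. Cytosolic ribosomal proteins behaved alike, with 21 of 49 lower and 1 higher as deposited, and 0 lower and 3 higher after scaling, and between 9 and 13 lower without any single PBS or LPS plus CTM library. Of 24 enzymes of the citric acid cycle 5 rose and 6 fell as deposited, 11 rose and 3 fell after scaling, and 3 rose without PBS replicate 2 or either LPS plus CTM library. The falls were 3 without PBS replicate 2 or the LPS plus CTM library numbered 2.

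Genes of glycolysis and the hypoxia response moved both ways. Of 27 members 12 fell and 7 rose (11 and 12 after scaling), beside 35.5% and 17.4% of all tested genes as deposited. Bnip3, a mitophagy receptor and hypoxia target, fell from 203 and 261 TPM to 61.8 and 60.6 TPM (log2 change -1.89, SE 0.12), below its 129.8 and 113 TPM in LPS (difference -0.97, SE 0.12, adjusted p = 2.2e-03). Ndrg1, another hypoxia target, fell from 60.6 and 74.9 TPM to 30.2 and 28.4 TPM while LPS alone stood near rest at 76.4 and 73.8 TPM. Ankrd37 fell from 13.8 and 18.7 TPM to 1.04 and 2.82 TPM, Pfkl, the liver-type phosphofructokinase, from 179.6 and 205 TPM to 103 and 104 TPM, and Pdk1, which inhibits pyruvate entry to mitochondria, from 100.1 and 95.8 TPM to 38.99 and 62.1 TPM. Against these, Hk3, a myeloid hexokinase, rose from 26.9 and 27.3 TPM to 125 and 113 TPM, and Slc2a1, the glucose transporter GLUT1, from 102 and 116 TPM to 150.2 and 143 TPM. Slc2a1 stood at 323 and 329 TPM in LPS. Hif1a, the oxygen-regulated factor, rose from 73.3 and 74.7 TPM to 106 and 94.00 TPM.

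Genes of lipid metabolism are set beside the 35.5% of all tested genes that fell and the 17.4% that rose. After scaling, 2577 of the 11030 tested genes fell and 2813 rose. Of 27 genes of cholesterol synthesis and uptake 14 fell and 1 rose (13 and 1 after scaling). Hmgcs1, an early enzyme of the pathway, fell from 52.6 and 51.7 TPM to 29.5 and 27.02 TPM and stood at 17.8 and 19.3 TPM in LPS. Of 19 genes of fatty acid oxidation 11 fell and 5 rose; the falls dropped to 7 after scaling, and the risers to 2 without PBS replicate 1 or without the LPS plus CTM library numbered 2. Cpt2, a carnitine transferase, fell from 18.5 and 20.1 TPM to 9.64 and 10.8 TPM. Plin2, a lipid droplet coat protein, rose from 35.8 and 41.3 TPM to 88.1 and 97.1 TPM, and Cd36, a fatty acid and lipoprotein receptor, from 10.01 and 7.42 TPM to 25.6 and 27.8 TPM. Abca1, the cholesterol exporter, rose from 6.13 and 8.70 TPM to 18.4 and 22.1 TPM, while Apoe fell from 16.1 and 13.5 TPM to 3.27 and 5.33 TPM.

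Of 30 scavenger and phagocytic receptors 14 rose and 11 fell. Clec4n, the lectin dectin-2, rose from 3.16 and 4.73 TPM to 79.4 and 79.6 TPM, whereas its relative Clec7a fell as described. Itgam, the complement receptor subunit CD11b, rose from 117 and 118 TPM to 446 and 436 TPM, and Msr1, the scavenger receptor A, from 189.9 and 203 TPM to 594 and 548 TPM. Trem2, a lipid-sensing receptor, fell from 298 and 309 TPM to 154 and 155 TPM, and Sirpa, the receptor for the CD47 signal, from 378 and 376 TPM to 166 and 165 TPM. Among chemokine and growth factor receptors 6 of 23 rose and 10 fell, beside 17.4% and 35.5% of all tested genes. Cx3cr1, the fractalkine receptor, fell from 282 and 282 TPM to 81.6 and 86.5 TPM, and Ccrl2 rose from 1.73 and 2.02 TPM to 73.5 and 52.1 TPM. Rgs2, which shortens G protein signals, fell from 51.6 and 57.5 TPM to 11.8 and 10.3 TPM, below its 29.3 and 31.1 TPM in LPS (difference -1.38, SE 0.10, adjusted p = 4.5e-04).

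Of 38 lysosome genes 18 rose and 10 fell (20 and 6 after scaling). Cathepsins parted: Ctsl rose from 305 and 300.3 TPM to 745 and 758 TPM, and Ctsf fell from 69.7 and 72.7 TPM to 30.9 and 25.96 TPM. Tfeb, the factor of lysosome biogenesis, fell from 15.4 and 15.2 TPM to 3.45 and 3.90 TPM (log2 change -1.81, SE 0.14). Among genes of the matrix, proteases and adhesion 11 of 19 rose and 4 fell. Itga4, an integrin subunit, fell from 545 and 530.4 TPM to 208 and 225 TPM, and Cd44, the hyaluronan receptor, rose from 63.2 and 69.8 TPM to 161 and 152 TPM. With a minimum of 5 TPM the list had 7 risers.

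The series is about Tgm2 and Vim, and both rose. Vim, which encodes the intermediate filament vimentin, went from 419.7 and 442 TPM in PBS to 539.6 and 597 TPM with both agents (log2 change 0.40, SE 0.06, adjusted p = 1.3e-03), below 738 and 739 TPM in LPS (difference -0.38, SE 0.06, adjusted p = 4.6e-03). Tgm2, the crosslinking enzyme transglutaminase 2, went from 15.7 and 20.96 TPM to 32.6 and 32.3 TPM (log2 change 0.80, SE 0.13, adjusted p = 1.9e-03), below 72.2 and 67.4 TPM in LPS (difference -1.08, SE 0.13, adjusted p = 1.9e-03). For both genes the PBS, LPS plus CTM and LPS libraries did not overlap and stood in that order. Rprd1b and Gm20412 are annotated over Tgm2 on the opposite strand, so its reads may not be separate. Of all 14 tested members of the list of intermediate filaments, lamins and linkers, 9 fell and 3 rose (7 and 3 after scaling). Lmnb1, a B-type lamin, fell from 138 and 129 TPM to 63.5 and 66.7 TPM, and Tmpo, a lamin-binding protein, from 224 and 223 TPM to 93.4 and 88.3 TPM. Lmna, the A-type lamin, rose slightly from 303 and 304 TPM to 333 and 343 TPM (log2 change 0.15, SE 0.05), a call lost without any single PBS or LPS plus CTM library (adjusted p from 0.0918 to 0.174) and with no variance trend (adjusted p = 0.134). Tubulin and actin genes stand beside the 17.4% of all tested genes that rose and the 35.5% that fell. Of 16 tubulins and subunits of their chaperone 5 rose and 6 fell (8 and 5 after scaling). Among the falls were Tubb4b from 321 and 314 TPM to 143 and 131 TPM and Tuba1b from 1284 and 1216 TPM to 642 and 641 TPM. Of 25 actin cytoskeleton genes 6 rose and 9 fell as deposited, but 8 rose and 1 fell after scaling, and the falls dropped to between 3 and 4 without any single PBS or LPS plus CTM library.

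Some genes departed from rest with both agents while LPS alone left them within 0.5 of rest on the log2 scale. This limit is on size: LPS alone also passed the test against PBS, in the same direction, for Sms-ps, Herpud1, Evi5, Arl11 and Pcdhgc3 (adjusted p from 0.0215 to 0.0415) and for Cd300ld (adjusted p = 2.2e-03). The naming rule took the largest changes from rest among genes with a small LPS change. A difference from LPS is therefore favoured by the rule and is no separate support for these genes. On the higher side the 8 with the largest changes were Brd3os, Mogat1, Sms-ps, Herpud1, Evi5, Ap4b1, Arl11 and Pcdhgc3. Herpud1, described above, showed the smallest adjusted p of them. Ap4b1, a subunit of a vesicle adaptor, went from 20.6 and 20.7 TPM in PBS to 37.4 and 33.4 TPM with both agents, and stood at 25.5 and 21.7 TPM in LPS (difference from LPS 0.57, SE 0.11, adjusted p = 9.6e-03). Arl11, a small GTPase of the ARF family, went from 17.6 and 15.5 TPM to 27.7 and 28.9 TPM, with 22.5 and 20.1 TPM in LPS (difference 0.40, adjusted p = 0.0310). Sms-ps, annotated as a pseudogene of the spermine synthase gene Sms, went from 31.5 and 38.7 TPM to 55.8 and 68.6 TPM, with 44.3 and 53.3 TPM in LPS (difference 0.34, adjusted p = 0.126). For Sms-ps, Brd3os, Mogat1 and Evi5 the difference from LPS did not pass. The rises of Brd3os and Mogat1 themselves missed the threshold without PBS replicate 2 (adjusted p = 0.0887 and 0.112) and without the LPS plus CTM library numbered 2 (adjusted p = 0.0919 and 0.0974). Mogat1 also missed it without the LPS plus CTM library numbered 3 (adjusted p = 0.0564), and both missed it with no filter on low levels (adjusted p = 0.0507 and 0.0621 for Brd3os and Mogat1). Pcdhgc3 shares exons and span with the protocadherin gamma cluster, so its value is uncertain.

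On the lower side the 8 were Mgarp, Ndrg1, Anapc10, Tmem254c, Cd300ld, Cerkl, Ulk3 and Mastl. Cerkl overlaps the far more abundant Itga4, described above, on the opposite strand, so its reads may not be separate. Mgarp, a mitochondrial transport protein described as a hypoxia target, went from 6.59 and 9.19 TPM to 2.24 and 2.39 TPM, with 10.3 and 10.8 TPM in LPS (difference -1.80, SE 0.17, adjusted p = 8.6e-04). Ndrg1 fell by 1.18 on the log2 scale (SE 0.11, adjusted p = 1.3e-04), and its difference from LPS was -1.33 (SE 0.11, adjusted p = 5.0e-04). Cd300ld, an activating receptor of myeloid cells, went from 71.6 and 74.8 TPM to 34.8 and 33.1 TPM, with 55.8 and 56.2 TPM in LPS. Mastl, a mitotic kinase, went from 7.90 and 8.37 TPM to 3.22 and 3.71 TPM, with 6.71 and 7.69 TPM in LPS. Differences from LPS passed for Mgarp, Ndrg1, Anapc10, Cd300ld and Mastl, and did not pass for Tmem254c, Cerkl and Ulk3. As on the higher side, the naming rule favours such a difference, which is no separate support. Tmem254c missed the threshold against PBS without PBS replicate 2 (adjusted p = 0.133) and without the LPS plus CTM library numbered 2 (adjusted p = 0.108). Cerkl missed it without PBS replicate 1 (adjusted p = 0.0996) and without either LPS plus CTM library (adjusted p = 0.0810 and 0.0575), and both missed it with no filter (adjusted p = 0.0785 for Tmem254c and 0.0618 for Cerkl).

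Other genes crossed the resting level, so that LPS alone and LPS plus CTM lay on opposite sides of it. Id1, a dominant-negative helix-loop-helix factor and target of BMP signals, stood at 23.8 and 23.7 TPM in PBS, 17.7 and 13.6 TPM in LPS and 44.00 and 43.2 TPM with both agents. Its change from rest was 0.85 (SE 0.12, adjusted p = 1.3e-03), and its difference from LPS 1.43 (SE 0.12). The naming rule fixed that LPS plus CTM and LPS alone lie on opposite sides of rest. A difference between them is therefore no separate support for these genes. Twf1, the actin-monomer-binding protein twinfilin 1, went from 29.2 and 29.2 TPM to 38.4 and 39.8 TPM, with 16.4 and 17.6 TPM in LPS. Ybx3 and Sema4a rose by 0.40 and 0.40 with smaller falls in LPS, and Sema4a missed the threshold without PBS replicate 2 (adjusted p = 0.0534).

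In the other direction were Eno2, Cdc42ep4, Gadd45g and Tnfrsf9. Cdc42ep4, an effector of the GTPase CDC42, went from 8.10 and 9.08 TPM to 5.68 and 4.27 TPM, with 15.3 and 14.9 TPM in LPS (log2 change -0.69, SE 0.15, adjusted p = 7.2e-03). Gadd45g, a growth arrest gene, stood at 5.27 and 6.60 TPM, 3.88 and 2.81 TPM and 18.3 and 22.1 TPM in the same order, and Tnfrsf9, the costimulator 4-1BB, at 6.18 and 9.70 TPM, 4.39 and 4.94 TPM and 25.97 and 22.3 TPM. Eno2, the neuronal enolase that hypoxia induces, stood at 22.4 and 37.2 TPM, 17.2 and 14.2 TPM and 57.1 and 48.5 TPM. Of these, the falls of Eno2 and Gadd45g missed the threshold without PBS replicate 2 (adjusted p = 0.0561 and 0.101) and without the LPS plus CTM library numbered 3 (adjusted p = 0.0868 and 0.0929). With no filter on low levels, Eno2 (adjusted p = 0.0602) and Gadd45g (adjusted p = 0.0552) missed it too. Tnfrsf9 missed it without PBS replicate 2, without any single LPS or LPS plus CTM library, after scaling, with no filter and with the 4 libraries of the contrast fitted alone (adjusted p from 0.0514 to 0.160).

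**Figure D5:**
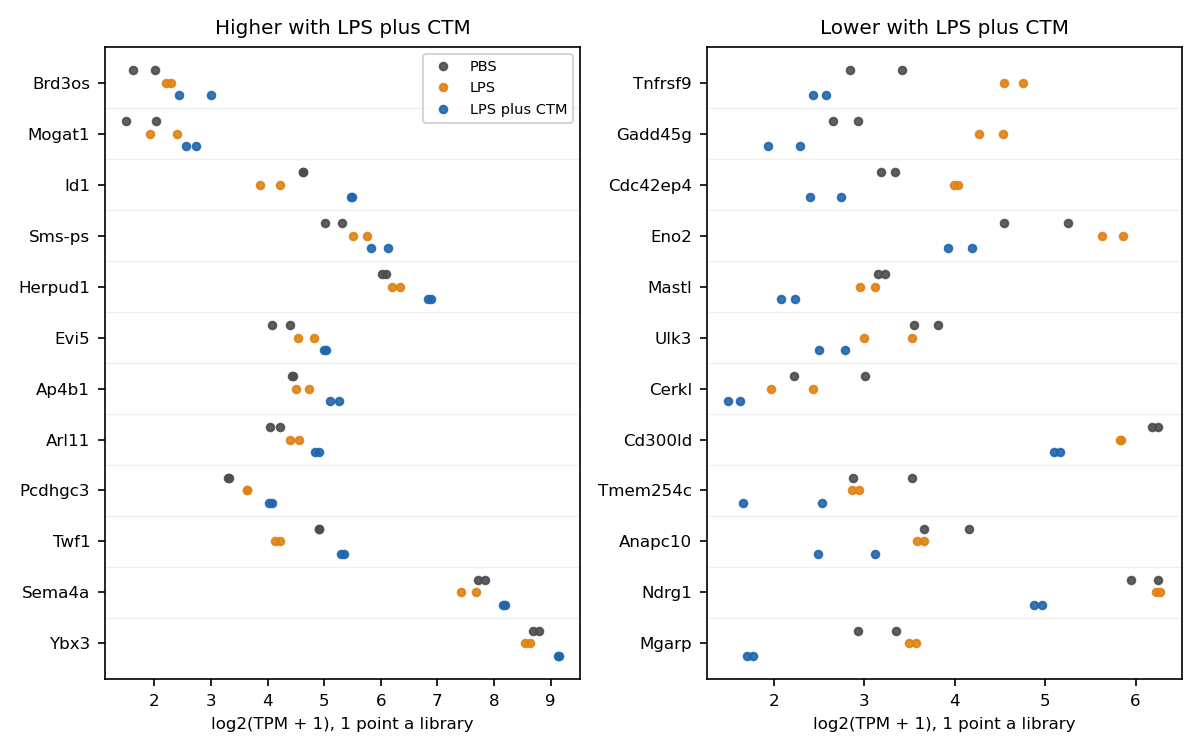
Log2(TPM + 1) in each library for genes that departed from PBS with LPS plus CTM while LPS alone changed them by under 0.5 or in the opposite direction, higher with both agents on the left and lower on the right; each point is 1 library. LPS plus CTM points lie outside the PBS points in every row by the naming rule, as for Herpud1, Id1, Ndrg1 and Mgarp.

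Values of liver from WT C57BL/6J mice given PBS or the same agents i.p. stand beside these for description only, with 1 library a group, no test, other doses (30 mg/kg LPS and 100 mg/kg CTM) and a separate normalization. The liver values list 5298 genes, of which 17.5% were higher and 41.6% lower by at least 1 on the log2 scale in LPS plus CTM against PBS. Of the 15 genes with the largest rises in the cells, 12 were listed and 11 were higher by at least 1 in liver, with Tnnt2 the exception. Some of the 11 were near the floor in liver. In PBS and in LPS plus CTM, Ptgs2 stood at 0.06 and 1.48 TPM and Nos2 at 0.04 and 3.36 TPM. Cxcl2 was at 0.71 TPM in the PBS liver and 51.8 TPM in the LPS plus CTM liver, and Lcn2 at 56.9 and 18312 TPM. Of the 15 genes with the largest falls only Cytip, Plekhg5 and N4bp3 were listed, and Plekhg5 and N4bp3 were lower by at least 1. Both were near the floor in the PBS and LPS plus CTM livers. Plekhg5 stood at 1.99 and 0.48 TPM and N4bp3 at 1.44 and 0.13 TPM.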

How the data were processed

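RNA sequencing of RAW264.7 cells was analysed from the table of TPM values that the authors deposited. Per the submitters' processing notes, Salmon was used and the builds were mm10 and GRCm38; versions and whether quantification used strand are not given in the sources used here. Per the labels, RNA came from the FastGene RNA Basic Kit and libraries from the TruSeq Stranded mRNA kit. TPM keeps no read depth, so no counting interval could be given. Columns for LPS and LPS plus CTM are numbered 2 and 3 where the labels number 1 and 2, so they were matched to groups only.

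Genes averaging at least 1 TPM in the 6 libraries entered limma 3.58.1 (R 4.3.3) as log2(TPM + 1), with a trend of variance on level and the 3 groups in 1 fit, and p-values were adjusted by Benjamini-Hochberg over 11030 genes, with a threshold of 0.05. Named genes were Vim, Tgm2 and, among changes that passed without overlap of groups, the 15 largest in each direction, with a mean of at least 5 TPM in the higher group and skipping Gm and Rik names. To these were added the 8 highest and 8 lowest with an LPS change under 0.5, up to 4 in each direction with the opposite LPS change, up to 4 largest per gene list, and list members with defining roles. The members and lists were chosen with earlier results of these data known. Alternatives were other pseudocounts, filters, scaling and variance settings and leaving out each library. The fit was tested on simulated data. Promoters came from RefSeq (GRCm38.p6), the first window per symbol, and gene positions from GENCODE. Numbers were drawn up with Python 3.11.15.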

Additional observations from a re-analysis of the deposited data

How the results depend on the processing

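No paired analysis was possible because the columns of LPS and LPS plus CTM carry other numbers than the labels. Requiring a 2-fold change as well left 540 genes higher and 689 lower. Median-of-ratios scaling gave 2577 lower, and 2813 higher stayed within 1.5 times of 1922. Leaving out 1 library in turn gave 1417 to 1973 genes higher and 2662 to 4062 lower. A pseudocount of 0.1, no filter, a minimum of 5 TPM, no variance trend and fitting the 4 libraries of the contrast alone gave 1778 to 1957 higher and 3455 to 4076 lower. Of the named genes past the threshold, 255 of 281 kept their direction and call under all 12 alternatives fitted to single genes, 26 lost the call under at least 1 and none reversed. Some named genes did not face all 12, since with a minimum of 5 TPM 268 of the 284 named genes were fitted. Of the genes named although they did not pass, Pdia6 turned to 0.0411 after scaling. The log2 change of mt-Co1 was 0.1501 after scaling, 0.0214 without PBS replicate 2, and from -0.0897 to 0.0574 without the LPS plus CTM libraries numbered 2 and 3. The cause was not tested. Counts for lists of small changes, such as ribosomal proteins, proteasome subunits and ER chaperones, move with the scaling, as given beside them.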
